A study of Mus musculus with 9 samples.

Results

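Amino acid transporter genes of 6 solute carrier families (Slc1, Slc3, Slc7, Slc36, Slc38 and Slc43) were examined in mouse thymocytes at 3 stages, in thymic tumours, before transformation and in controls. Members were all genes whose symbol is one of these family names followed by a and a number, each read by the probe set that names that gene alone and has the highest mean log2 signal over the 9 arrays. This gave 40 members among 18193 genes with a probe set, and 25 of the 40 passed the filter on low signals and were tested among 11644 genes. The other 15 read low on all 9 arrays, with 18.9 (Slc7a10, in tumour 1) as their highest signal, and Slc38a8 and Slc38a11 were not analysed here.

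All 9 mice were C57Bl/6 and carried R26NC/NC, a conditional allele at the Rosa26 locus for an active form of β-catenin, so the controls carried it too. The tumour group held 4 thymic tumours of R26NC/NC CD4Cre+ mice aged 28, 26, 23 and 21 weeks (tumours 1 to 4). The pre-transformed group held sorted CD4+CD8+ double-positive (DP) thymocytes of 3 R26NC/NC CD4Cre+ mice aged 6 weeks, and the control group DP thymocytes sorted from 2 R26NC/NC CD4Cre- mice of that age. CD4Cre is expressed from the DP stage on and stays on in later T cells, so active β-catenin is not limited to DP cells. Tumours were unsorted with at least 95% DP cells, and sorted cells were over 98% DP. RNA of tumours (2.5 µg) was labelled by the standard protocol and RNA of sorted cells (0.1 µg) with an amplification kit. In both comparisons of tumours with sorted cells, disease stage therefore cannot be told apart from labelling, sorting and age. Each array is 1 mouse, and 2 to 4 arrays per group limit the precision of all values.

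Amino acids cross membranes on carriers that differ in substrate and in what drives them. Heteromeric carriers pair a heavy chain of the Slc3 family, which brings the complex to the cell surface, with a light chain of the Slc7 family that moves the amino acid, often in exchange for another such as glutamine. Slc1a4, Slc1a5 and many Slc38 carriers move neutral amino acids with sodium. Slc36 carriers such as Slc36a1 move small amino acids with protons, and Slc43a1 and Slc43a2 let large neutral amino acids pass by facilitated diffusion. Developing and activated T cells raise uptake of leucine, glutamine and arginine when they grow, and several carriers sit on the lysosome, where amino acid levels are reported to the kinase mTORC1. Cells short of amino acids raise a set of transporter and synthesis genes through the transcription factor ATF4, which binds C/EBP-ATF response elements (CARE).

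**Figure D1:**
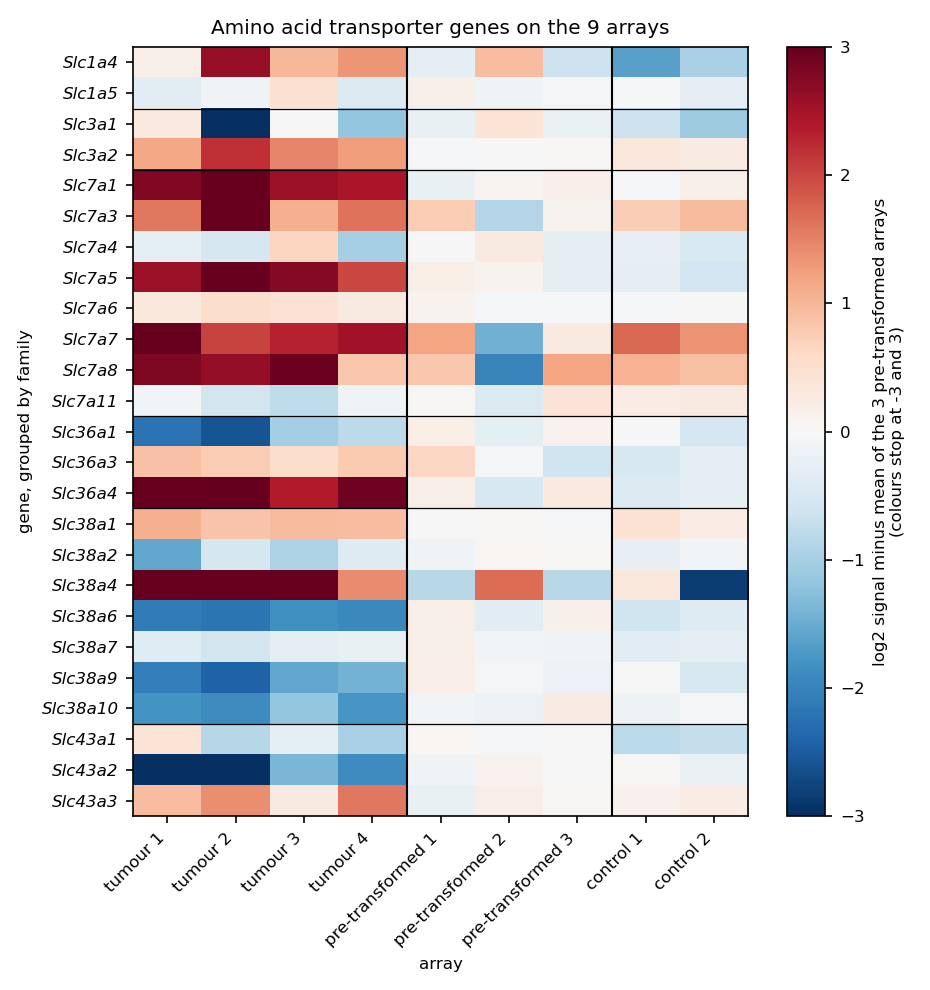
Log2 signal of the 25 tested members relative to the mean of the 3 pre-transformed arrays, by array (columns, tumours left, then pre-transformed, then controls) and by member (rows, grouped by family). Colours stop at -3 and 3. Red is higher and blue is lower than the pre-transformed mean. The 4 tumour columns stand apart in Slc7a1, Slc7a5, Slc36a4 (red) and in Slc38a6, Slc38a9, Slc43a2 (blue).

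In tumours against pre-transformed cells, 10 of the 25 tested members were called higher, 6 were called lower and 9 were not called (limma, Benjamini-Hochberg adjusted p under 0.05 over 11644 genes). Over all genes, 23.9% were called higher and 31% lower. The 10 include Slc7a7 and Slc38a4, which passed the filter only through tumour arrays and had to be high there, as did Slc7a8, which was not called. Without these 3, 8 of 22 members were higher and 6 lower. With all signals raised to a common floor (44.6) 7 of 25 were higher and 6 lower, beside 1955 and 3065 of 11644 genes. Against controls, 7 members were called higher, 5 lower and 13 not called, where 20.5% and 25.2% of all genes were called higher and lower. Without the same 3 members, 6 of 22 were higher and 5 lower. Both comparisons use the same tumour arrays. Pre-transformed cells differed from controls in 1 member, Slc43a1, which was higher, where 1.11% of all genes were called higher and 0.524% lower. The median log2 change of the 25 members was 0.39 in tumours against pre-transformed cells, 0.41 in tumours against controls and 0.17 in pre-transformed cells against controls, while it was -0.121, -0.077 and 0.024 over all genes. Both tumour medians include Slc7a7, Slc7a8 and Slc38a4, so part of them comes with the filter. Without these 3 members the median against pre-transformed cells is negative. Centring each array on its median moved the median of all genes by more than 0.1, to -0.377, -0.465 and -0.108, so a member's change is read against that shift where it is small.

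By family, tumours against pre-transformed cells had 0 members called in Slc1 (2 tested of 7), 1 higher in Slc3 (2 of 2) and 5 higher and 0 lower in Slc7 (8 of 15). Slc36 (3 of 4) and Slc43 (3 of 3) each had 1 higher and 1 lower, and Slc38 (7 of 9) had 2 higher and 4 lower. The higher members include Slc7a7 and Slc38a4, which had to be high in tumours to pass the filter, as did the uncalled Slc7a8. Neither Slc7a7 nor Slc38a4 was called with a common floor. The Slc7 count excludes Slc7a3 under quantile normalization and both Slc7a3 and Slc7a6 under median centring, while no Slc7 member was called lower in this comparison under either. Against controls, 1 was higher in Slc1 and in Slc3, 2 in Slc7, 1 in Slc36 and 2 in Slc38, while 1 was lower in Slc36 and in Slc43 and 3 in Slc38. In bulk samples a change in how many cells express a gene and a change in RNA per cell cannot be told apart, and tumours were not sorted. A member is called dim in a group if all its arrays read below the 65th percentile of the array (28.5 to 40.5 on tumour arrays, 39.4 to 44.6 on sorted arrays). Where 1 group was dim, a fold is given as a lower bound (the dim group set to that percentile) if it exceeds 1. For members dim in a group, the adjusted p is given without the size of the log2 change, which rests on signals near background.

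Promoter windows, 250 bases before to 50 bases after the start (RefSeq, GRCm38.p6, 29 of 40 members matched), were searched on both strands for CACGTG, the E-box, and for TGATGNAAN, a CARE. The E-box was in 7 of 29 member genes (24.1%) and in 8.09% of all genes with a window, and CARE in 3 of 29 (10.3%) and in 4.5%. Among the 19 tested members with a window, each motif was in 3 (15.8%), and 4 of the 7 E-box genes (Slc1a6, Slc1a7, Slc7a14 and Slc38a5) were not tested. The motifs were chosen because E-boxes of this form are bound by Myc and TFEB, regulators of growth and of the lysosome, and CARE by ATF4. The windows of Slc1a4 (chr11:20332664-20332963, minus strand), Slc7a11 (chr3:50443564-50443863, minus strand), Slc36a1 (chr11:55204090-55204389, plus strand) and Slc43a1 (chr2:84840073-84840372, plus strand) are given in full with the matches in capitals, as examples of members described here that hold a CARE or an E-box. The matches start at -5 in Slc1a4, at -66 and -48 in Slc7a11, at -31 and -3 in Slc36a1 and at -64 in Slc43a1, counted from the start site. Slc7a7 (CARE at -141 and -1 of its first window) and Slc38a7 (E-box at -34) also hold a match and are not printed. Slc7a5 and Slc38a1 had no window and were not searched, and the windows of Slc3a2, Slc7a1 and Slc36a4 hold neither motif. No printed window holds both motifs, and a match is a description of letters, not of binding.
Slc1a4: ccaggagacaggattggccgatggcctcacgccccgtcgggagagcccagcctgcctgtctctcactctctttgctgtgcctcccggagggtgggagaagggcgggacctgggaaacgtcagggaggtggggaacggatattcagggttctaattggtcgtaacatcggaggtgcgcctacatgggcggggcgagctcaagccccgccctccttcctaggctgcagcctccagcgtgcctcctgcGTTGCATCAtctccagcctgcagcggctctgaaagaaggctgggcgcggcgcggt
Slc7a11: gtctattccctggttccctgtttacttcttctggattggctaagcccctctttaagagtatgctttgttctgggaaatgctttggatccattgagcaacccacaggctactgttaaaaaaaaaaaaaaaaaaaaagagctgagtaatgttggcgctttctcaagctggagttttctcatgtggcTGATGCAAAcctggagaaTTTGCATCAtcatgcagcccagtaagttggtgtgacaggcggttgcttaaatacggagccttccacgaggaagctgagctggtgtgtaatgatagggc
Slc36a1: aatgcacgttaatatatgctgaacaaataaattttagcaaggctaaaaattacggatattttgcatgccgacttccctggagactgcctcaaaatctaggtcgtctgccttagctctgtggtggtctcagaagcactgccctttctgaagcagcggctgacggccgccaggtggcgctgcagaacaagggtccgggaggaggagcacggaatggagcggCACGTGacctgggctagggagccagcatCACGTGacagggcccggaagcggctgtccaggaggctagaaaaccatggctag
Slc43a1: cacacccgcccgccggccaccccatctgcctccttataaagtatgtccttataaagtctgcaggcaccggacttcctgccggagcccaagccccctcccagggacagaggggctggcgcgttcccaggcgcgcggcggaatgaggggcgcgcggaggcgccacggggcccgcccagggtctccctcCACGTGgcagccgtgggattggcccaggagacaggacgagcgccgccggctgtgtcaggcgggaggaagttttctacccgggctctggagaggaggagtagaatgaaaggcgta

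The heteromeric transporters were led by Slc7a5 (LAT1, the leucine and tryptophan light chain) and its heavy chain Slc3a2 (CD98, the surface partner of most Slc7 light chains). Slc7a5 had signals of 467, 998, 527 and 314 in the tumours, 88.3, 84.5 and 63.8 in pre-transformed cells and 65.1 and 52.6 in controls. No tumour array overlapped a sorted array, and tumour 2 was the highest of all. The geometric mean was 526.9 in tumours (SD 0.69, log2, n = 4), 78.08 in pre-transformed cells (SD 0.25, n = 3) and 58.52 in controls (SD 0.22, n = 2). Tumours differed by a log2 change of 2.75 ± 0.34 against pre-transformed cells (SE, adjusted p = 0.000121) and 3.17 ± 0.38 against controls (adjusted p = 0.000236), or 6.75-fold and 9-fold.

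Slc3a2 moved the same way but less far. Its signals were 615, 1267, 766 and 665 in tumours, 268, 280 and 284 in pre-transformed cells and 350 and 327 in controls. Every tumour array lay above every sorted array, and the pre-transformed arrays all lay below the control arrays. The log2 change in tumours was 1.52 ± 0.23 against pre-transformed cells (adjusted p = 0.000391, 2.86-fold) and 1.23 ± 0.26 against controls (adjusted p = 0.00382, 2.35-fold). With median centring the second was 0.84 (adjusted p = 0.0677) and was no longer called. Pre-transformed against control cells gave -0.28 ± 0.11 (adjusted p = 0.219), which was not called.

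Other light chains moved less or were dim. Slc7a6 (y+LAT2, which exchanges cationic for neutral amino acids) had signals of 265 to 317 in tumours, 209 to 236 in pre-transformed cells and 212 and 219 in controls. Its tumour arrays lay above all sorted arrays, with a log2 change of 0.39 ± 0.14 against pre-transformed cells (adjusted p = 0.0383, 1.31-fold). That call was lost under 11 of 21 alternatives, among them median centring (0.13, adjusted p = 0.621) and leaving out tumour 2 (0.34, adjusted p = 0.0699). The call was also lost when any single sorted array was left out, with adjusted p of 0.0617, 0.105 and 0.131 without pre-transformed 1, 2 or 3 and 0.066 and 0.0658 without control 1 or 2. Slc7a7 (y+LAT1, the light chain of epithelia and macrophages) had signals of 31.2, 14.4, 17.5 and 20.5 in tumours, 8, 1.3 and 4.3 in pre-transformed cells and 11.7 and 9 in controls. It was called higher in tumours against pre-transformed cells (adjusted p = 0.00699), but every array was dim, so no size is given, and with a common floor no difference was left (log2 change 0, adjusted p = 1). Slc7a8 (LAT2) was dim on every array and was not called in either tumour comparison (adjusted p = 0.0515 against pre-transformed cells and 0.306 against controls).

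Slc7a11 (xCT, which imports cystine for glutathione in exchange for glutamate), whose window held a pair of CARE matches, was not called in any comparison. It had signals of 53.7, 38.5, 33.4 and 51.9 in tumours, 58.4, 42.1 and 73.5 in pre-transformed cells and 66.1 and 68.5 in controls. The tumour arrays overlapped those of pre-transformed cells and lay below both controls. Log2 changes were -0.38 ± 0.27 against pre-transformed cells (adjusted p = 0.26), -0.63 ± 0.31 against controls (adjusted p = 0.119) and -0.25 in pre-transformed cells against controls (adjusted p = 0.644). With median centring, tumours against controls gave -1.02 (adjusted p = 0.0299). A second probe set gave -0.31 against pre-transformed cells and -1.87 against controls. The mean of both probe sets gave -1.25 against controls (adjusted p = 0.0189), which would then be called lower. Slc3a1 (rBAT, the heavy chain of the kidney cystine carrier) was dim on all arrays, with signals of 0.6 to 14.4 in tumours and 5.6 to 15.7 in sorted cells, and was not called.

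Among the cationic amino acid carriers of the Slc7 family, tumours were higher in Slc7a1 (CAT1, the main arginine and lysine importer of many cells). Its signals were 1067, 1288, 922 and 851 in tumours, 133, 164 and 172 in pre-transformed cells and 152 and 173 in controls. The lowest tumour array was several times above the highest sorted array. The log2 change was 2.71 ± 0.18 against pre-transformed cells (adjusted p = 7.56e-06, 6.54-fold) and 2.65 ± 0.2 against controls (adjusted p = 3.72e-05, 6.28-fold). A second probe set gave 2.25 and 2.13, so both rose. Slc7a3 (CAT3) was bright in tumour 2 alone, with 19.7, 216, 13.8 and 20.3 in tumours, 11.1, 3.6 and 7.1 in pre-transformed cells and 11 and 12.6 in controls. It was called higher against pre-transformed cells (adjusted p = 0.043) and not against controls (adjusted p = 0.237), and it has no fold bound above 1. That call was lost under 12 of 20 alternatives, among them a common floor (log2 change 0.57, adjusted p = 0.519). Without tumour 2, which leaves 3 dim tumour arrays, it was called (adjusted p = 0.0302). It was not called when any 1 of the sorted arrays was left out, with adjusted p of 0.0544, 0.147 and 0.09 without pre-transformed 1, 2 or 3 and 0.0596 and 0.0601 without control 1 or 2. Slc7a4 had 14.3 to 44.6 in tumours, 23.6 to 34.8 in pre-transformed cells and 20.9 and 24.1 in controls, and was not called.

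**Figure D2:**
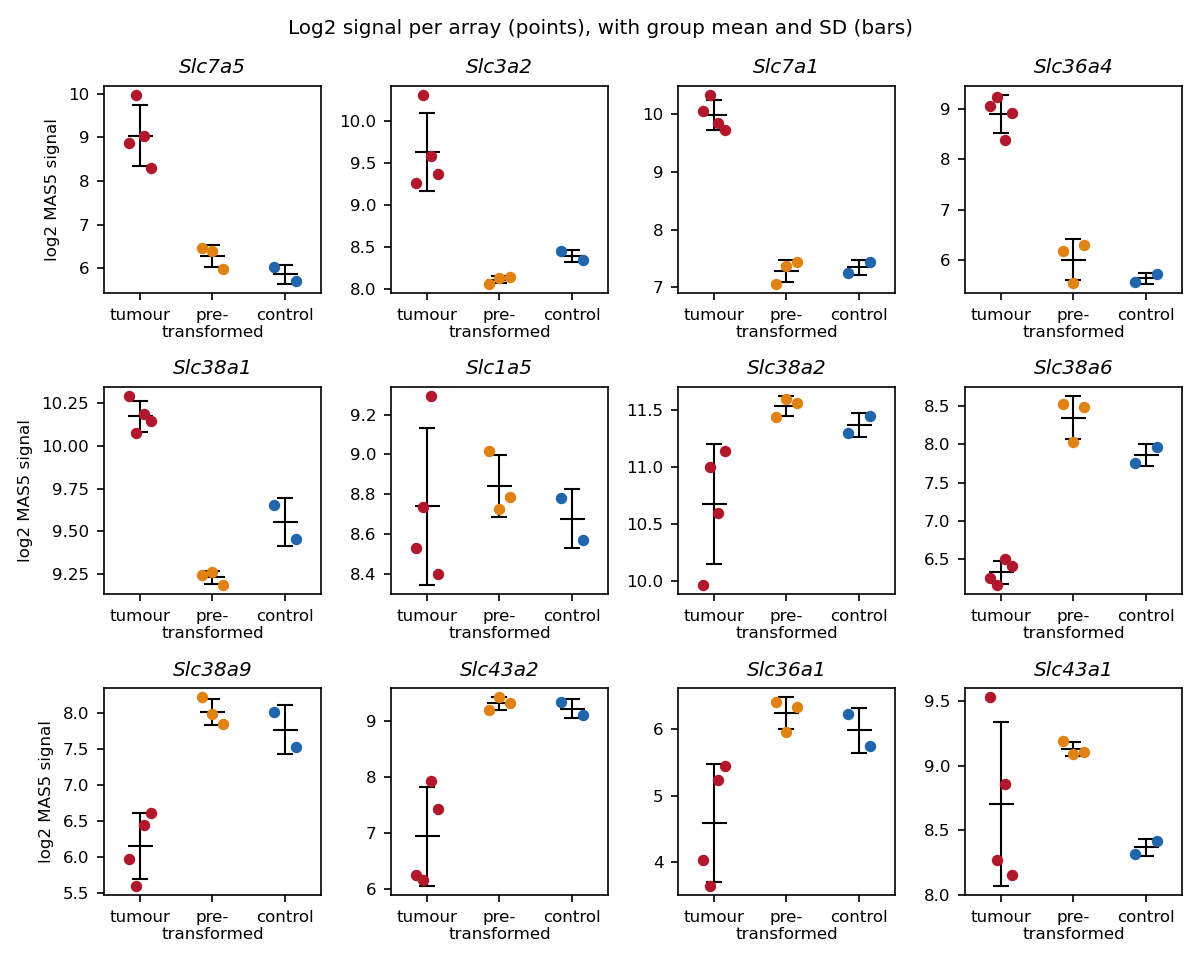
Log2 signal of 12 members on each array, with the mean and SD of the log2 values (bars), for tumours (n = 4), pre-transformed cells (n = 3) and controls (n = 2). In the top row (Slc7a5, Slc3a2, Slc7a1, Slc36a4) every tumour array lies above every sorted array. Slc38a6, Slc38a9 and Slc43a2 lie below every sorted array, while Slc1a5 overlaps.

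The called Slc36 carriers moved in opposite directions. Slc36a4 (PAT4, a carrier of proline and tryptophan) had signals of 535, 607, 335 and 487 in tumours, 72.9, 46.4 and 78.4 in pre-transformed cells and 47.2 and 52.4 in controls. Each tumour array was above each sorted array. Its log2 change was 2.9 ± 0.25 against pre-transformed cells (adjusted p = 2.35e-05, 7.47-fold) and 3.27 ± 0.29 against controls (adjusted p = 5.96e-05, 9.65-fold). Slc36a1 (PAT1, which exports amino acids from the lysosome) had signals of 16.4, 12.5, 37.6 and 43.7 in tumours, 85.3, 62.5 and 81.2 in pre-transformed cells and 74.8 and 53.6 in controls. All tumour arrays were below all sorted arrays, and 1 of 4 was not dim. Tumours gave a log2 change of -1.65 ± 0.44 against pre-transformed cells (adjusted p = 0.0094, 3.14-fold lower in tumours) and -1.39 ± 0.49 against controls (adjusted p = 0.0418). Since 3 of the 4 tumour arrays were under the dim limit, a common floor shrank these to -0.76 (adjusted p = 0.00444) and -0.51 (adjusted p = 0.0472). The second call was lost under 10 of 21 alternatives, including leaving out tumour 1 (adjusted p = 0.0831) or tumour 2 (0.0529), and any sorted array (0.0583 to 0.237). Slc36a3 was dim on all arrays and was not called, and Slc36a2 was not tested. Slc36a3, Slc36a2 and Slc36a1 follow each other among the protein-coding genes of chromosome 11 (RefSeq, GRCm38.p6).

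The Slc38 sodium-coupled carriers split within the family. Slc38a1 (SNAT1, a glutamine importer) had signals of 1253, 1079, 1166 and 1134 in tumours, 606, 613 and 583 in pre-transformed cells and 807 and 702 in controls. Tumour arrays were above all sorted arrays, and pre-transformed arrays were below both controls. Tumours rose by a log2 change of 0.95 ± 0.12 against pre-transformed cells (adjusted p = 0.000123, 1.92-fold) and 0.62 ± 0.13 against controls (adjusted p = 0.00404, 1.54-fold). The second call was lost under median centring (0.23, adjusted p = 0.329) and without control 2 (0.52, adjusted p = 0.0599). A second probe set gave 1.43 and 1.03. Pre-transformed against control cells was not called (-0.33 ± 0.1, adjusted p = 0.161).

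Slc38a2 (SNAT2, which amino acid shortage raises in many cells) went the other way. It had signals of 1000.4, 2041, 1546 and 2248 in tumours, 2765, 3093 and 3023 in pre-transformed cells and 2511 and 2782 in controls. All tumour arrays lay below all sorted arrays. Slc38a2 changed by -0.86 ± 0.24 on the log2 scale against pre-transformed cells (adjusted p = 0.0125, 1.81-fold lower in tumours), and -0.7 ± 0.27 against controls was not called (adjusted p = 0.0595). Leaving out tumour 2 or tumour 4 brought that second value past the threshold (-0.8, adjusted p = 0.0352, and -0.85, adjusted p = 0.0254). Its other probe sets gave -1.77 and -0.97 against pre-transformed cells.

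Slc38a9 (the lysosomal arginine sensor that acts on mTORC1) had signals of 62.4, 48.5, 87.4 and 97.5 in tumours, 298, 253 and 231 in pre-transformed cells and 258 and 185 in controls. Every tumour array was below every sorted array. The log2 change was -1.86 ± 0.26 against pre-transformed cells (adjusted p = 0.000259, 3.64-fold lower in tumours) and -1.62 ± 0.3 against controls (adjusted p = 0.00194, 3.07-fold lower in tumours). All 7 probe sets of the gene were lower in tumours against pre-transformed cells, with log2 changes from -2.4 to -1.73.

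Slc38a6 was also lower, while Slc38a10 was called lower by its brightest probe set and has no settled direction. Slc38a6 had signals of 76.1, 71.9, 90.5 and 85 in tumours, 369, 261 and 360 in pre-transformed cells and 217 and 251 in controls. The tumour arrays lay far below the rest. Its log2 change was -2.02 ± 0.18 against pre-transformed cells (adjusted p = 2.7e-05, 4.05-fold lower in tumours) and -1.53 ± 0.21 against controls (adjusted p = 0.000414), while averaging its probe sets left -1.41 (adjusted p = 0.0315) and -1.12 (adjusted p = 0.12), the second of which was not called. Slc38a10 had signals of 243, 225, 366 and 246 in tumours, 795, 740 and 992 in pre-transformed cells and 748 and 811 in controls. Those arrays did not overlap either, with log2 changes of -1.66 ± 0.19 (adjusted p = 8.6e-05) and -1.56 ± 0.22 (adjusted p = 0.000467). Its probe sets did not agree, however: 6 probe sets gave -1.66, -0.56, 1.19, 0.19, 1.83 and -0.06 against pre-transformed cells. Averaged, they gave 0.16 (adjusted p = 0.481), and 0.42 against controls (adjusted p = 0.112), so the direction of Slc38a10 rests on the probe set chosen.

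**Figure D3:**
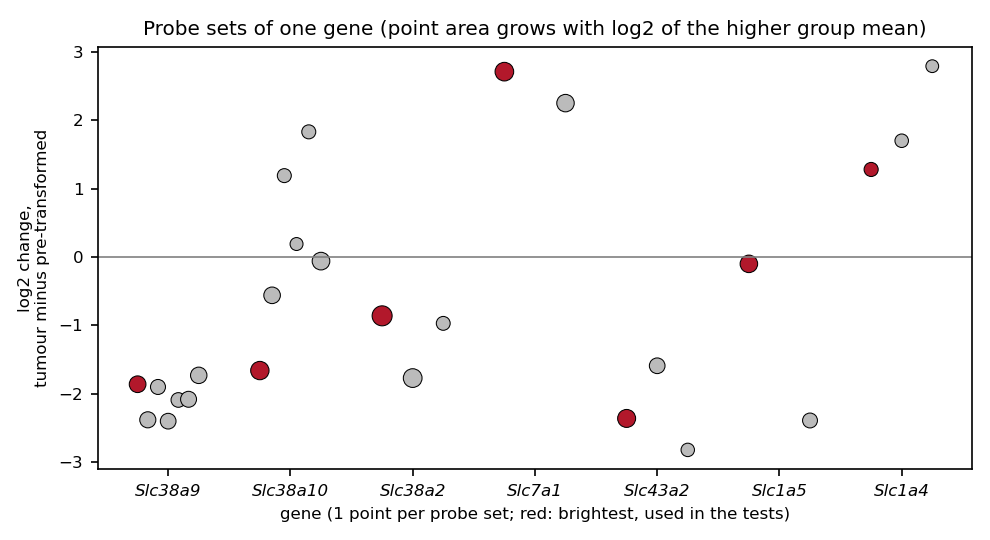
Log2 change in tumours against pre-transformed cells for each kept probe set of 7 members (1 point each, red for the probe set tested, larger points for brighter probe sets). All 7 Slc38a9 probe sets lie below 0, while the 6 of Slc38a10 lie on both sides of 0.

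Slc38a4 (SNAT4) was the most uneven member. Its signals were 12, 90.7, 34.9 and 1.9 in tumours, 0.4, 2.3 and 0.4 in pre-transformed cells and 0.9 and 0.1 in controls. It exceeded the dim limit on 1 tumour array, so that no fold bound above 1 could be given. It was called higher against pre-transformed cells (adjusted p = 0.0237) and against controls (adjusted p = 0.0171), with no size given since the sorted arrays read 0.1 to 2.3. A common floor left a log2 change of 0.26 in each (adjusted p = 0.519 and 0.617), so neither was called. The first call was also lost with quantile normalization (adjusted p = 0.0595), without tumour 2 (0.0639), without tumour 3 (0.0619) and without pre-transformed 1 or 3 (0.0754 and 0.0757). The second was lost with an offset of 16 (adjusted p = 0.0685) and without control 2 (0.146). Slc38a1, Slc38a2 and Slc38a4 follow each other among the protein-coding genes of chromosome 15, and of these Slc38a2 was called lower in tumours and Slc38a1 higher. Slc38a7 (a lysosomal glutamine exporter) was not called, with signals of 30.2 to 38.1 in tumours, 41.6 to 50.6 in pre-transformed cells and 35.6 and 36.5 in controls.

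Slc43a1 (LAT3, a facilitator of leucine and phenylalanine) was the only member called in pre-transformed against control cells. Its signals were 740, 309, 465 and 285 in tumours, 585, 545 and 552 in pre-transformed cells and 320 and 342 in controls. The 3 pre-transformed arrays were tight and above both controls, while tumours spread over both. The log2 change was 0.76 ± 0.1 in pre-transformed against control cells (adjusted p = 0.0167, 1.7-fold). It kept its call in 11 of 17 alternatives and lost it under a common floor, without a trend, with tumours in the fit, without pre-transformed 3 (0.77, adjusted p = 0.0744), without control 1 (0.71, adjusted p = 0.117) and without control 2 (0.81, adjusted p = 0.148). In tumours it was not called against pre-transformed cells (-0.43, adjusted p = 0.234) or controls (0.34, adjusted p = 0.42), and without tumour 1 the first was -0.7 (adjusted p = 0.0141).

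Slc43a2 (LAT4, another facilitator of branched-chain amino acids and methionine) was among the members that fell furthest. It had signals of 76, 71.8, 245 and 172 in tumours, 588, 683 and 634 in pre-transformed cells and 646 and 549 in controls. The highest tumour array was well under the lowest sorted array. The log2 change was -2.36 ± 0.39 against pre-transformed cells (adjusted p = 0.000681, 5.15-fold lower in tumours) and -2.27 ± 0.44 against controls (adjusted p = 0.00266, 4.84-fold lower in tumours). Its 3 probe sets gave -2.36, -1.59 and -2.82. Slc43a3, which carries purine nucleobases in place of amino acids, had signals of 157, 219, 99.2 and 246 in tumours, 71.1, 94.3 and 84.1 in pre-transformed cells and 89.8 and 95.9 in controls. All tumour arrays lay above all sorted arrays. Slc43a3 changed by 1.04 ± 0.3 on the log2 scale against pre-transformed cells (adjusted p = 0.0134, 2.06-fold), and 0.87 against controls was not called (adjusted p = 0.0557). The first was lost under median centring (0.79, adjusted p = 0.0816) and without pre-transformed 1 (0.93, adjusted p = 0.0555), and the second was called without tumour 3 (1.13, adjusted p = 0.00457).

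Among Slc1 members, Slc1a5 (ASCT2, a glutamine exchanger often raised in growing T cells) was not called. Its signals were 370, 427, 627 and 337 in tumours, 519, 423 and 441 in pre-transformed cells and 440 and 380 in controls. The 3 groups overlapped. Log2 changes were -0.1 ± 0.21 (adjusted p = 0.698), 0.06 ± 0.24 (adjusted p = 0.843) and 0.17 in pre-transformed against control cells (adjusted p = 0.545). A dimmer probe set of the gene gave -2.39 and -1.99, and the mean of both gave -1.25 against pre-transformed cells (adjusted p = 0.000483) and -0.96 against controls (adjusted p = 0.00587), so both would then be called lower.

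Slc1a4 (ASCT1, a carrier of alanine, serine and cysteine) had signals of 24.5, 134.5, 43.9 and 54.6 in tumours, 17.9, 41.4 and 14.1 in pre-transformed cells and 7.1 and 11.2 in controls. Tumours were above both controls, and overlapped pre-transformed cells. It was called against controls (adjusted p = 0.00983, at least 1.3-fold) and not against pre-transformed cells (adjusted p = 0.0831). The first call was lost with a common floor (log2 change 0.47, adjusted p = 0.515) and without control 1 (adjusted p = 0.0925). The second was called under 5 of 21 alternatives: without tumour 1 (adjusted p = 0.0305), without pre-transformed 2 (0.0451), with the mean of probe sets (0.0272), without suffixed probe sets (0.0442) and with the replicate block (0.0389). All pre-transformed arrays of Slc1a4 lay above both controls. That comparison was not called (adjusted p = 0.222), except without suffixed probe sets (adjusted p = 0.0274). Its other probe sets averaged 38.3 and 25.88 in tumours, against 11.76 and 3.754 in pre-transformed cells and 0.5292 and 0.5916 in controls.

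**Figure D4:**
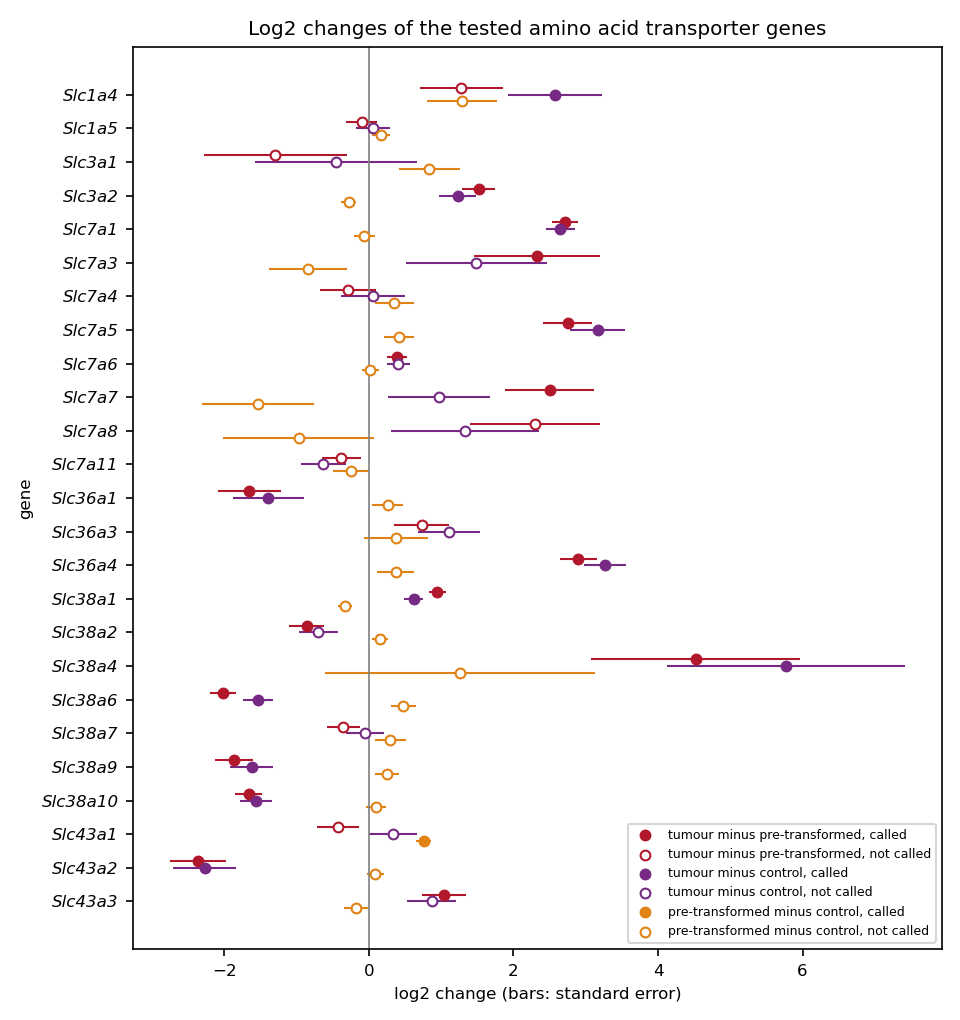
Log2 change with SE (bars) of the 25 tested members (rows) in tumours against pre-transformed cells, in tumours against controls and in pre-transformed cells against controls. Filled points were called. Of members with no dim tumour array, Slc36a4, Slc7a5 and Slc7a1 rose most against pre-transformed cells, and Slc43a2, Slc38a6 and Slc38a9 fell most. Slc43a1 is the 1 filled point of pre-transformed cells. The sizes of Slc1a4, Slc3a1, Slc7a3, Slc7a4, Slc7a7, Slc7a8, Slc36a3 and Slc38a4 rest on dim signals, as do those of Slc38a7 against controls.

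Genes that respond to amino acid shortage, sense amino acids or use glutamine and glutathione were read beside the transporters. Of 26 amino acid response genes (23 tested), 10 were higher and 1 lower in tumours against pre-transformed cells (23.9% and 31% over all genes), and 10 and 1 against controls (20.5% and 25.2%). Of the genes called higher against pre-transformed cells, Asns, Cth, Gpt2 and Atf3 passed the filter only through tumour arrays and had to be high there. The median log2 change of the list against pre-transformed cells was 0.74, while it was -0.121 over all genes. Part of that count and median thus comes with the filter. Asns (asparagine synthetase) had signals of 281, 1669, 193 and 330 in tumours, 3.7, 0.6 and 4.2 in pre-transformed cells and 2.8 and 5.6 in controls. It was dim in sorted cells and at least 9.5-fold higher in tumours than in pre-transformed cells (adjusted p = 7.14e-05). Cth (cystathionine gamma-lyase, which makes cysteine) was at least 3.07-fold higher (adjusted p = 0.000198). In Psat1 (an enzyme of serine synthesis) tumours lay 3.41 ± 0.37 log2 units above pre-transformed cells (adjusted p = 6.52e-05). In Eif4ebp1 (a brake on cap-dependent translation) the difference was 3.34 ± 0.38 (adjusted p = 8.23e-05).

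Of 33 amino acid sensing genes (30 tested), 6 were higher and 14 lower against pre-transformed cells (23.9% and 31% over all genes), and 4 and 13 against controls (20.5% and 25.2%). Their median log2 change was -0.38 in the first comparison, while that of all genes was -0.121. Castor2, of the cytosolic arginine sensor family, was dim in tumours and at least 2.58-fold lower (adjusted p = 0.000193). Wdr24 (of the GATOR2 complex) and Rragd (a Rag GTPase), which act between amino acids and mTORC1, changed by -1.44 ± 0.18 and -1.4 ± 0.23. Seh1l, also of GATOR2, changed the other way, by 1.38 ± 0.17. Slc38a9, in which all tumour arrays lay below the sorted ones, belongs to the same route.

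Of 33 amino acid and peptide carriers outside the 6 families (22 tested), 2 were higher and 9 lower against pre-transformed cells (23.9% and 31% over all genes), and 4 and 7 against controls (20.5% and 25.2%), with a median log2 change of -0.36 in the first. Slc15a2 (a peptide carrier) was called lower (adjusted p = 0.0104). Its signals were 1.1, 3.8, 3.1 and 373.1 in tumours and 923.9, 976.3 and 219.2 in pre-transformed cells. The arrays overlapped and 1 tumour array exceeded the dim limit, so no size is given. Sfxn3 changed by -2.01 ± 0.29, and Slc6a19 (a neutral amino acid carrier of gut and kidney), dim in tumours, was at least 2.52-fold lower. Slc25a29 (a mitochondrial carrier of basic amino acids) changed by -1.6 ± 0.28. Sfxn1 (a mitochondrial serine carrier) changed by 1.58 ± 0.15. Of 18 genes of glutamine and glutathione use (15 tested), 7 were higher and 2 lower against pre-transformed cells, and 5 and 2 against controls, beside the same shares of all genes, with a median of 0.16 in the first. The 7 include Cth and Cbs, which passed the filter only through tumour arrays. Got1 (aspartate aminotransferase) changed by 2.61 ± 0.4, and Gsr and Txnrd1 (glutathione and thioredoxin reductases) by 1.26 ± 0.28 and 1.24 ± 0.22.

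Tumour 2 was often the highest of the 4 tumours. Of the 10 members called higher against pre-transformed cells, tumour 2 was the highest tumour in 7, while it was highest in 32.5% of all 2785 genes called higher. Over all 25 tested members it was the highest tumour in 8 (32%), and over all 11644 genes in 24.5%. The 7 include Slc7a3, which was bright in tumour 2 alone, and Slc38a4, so part of that count comes with the calls. Of the 23 tested response genes tumour 2 was highest in 17. Chac1 (8.3, 135.1, 13.4 and 14.3 in tumours 1 to 4) and Trib3 (13.1, 121.9, 19.9 and 28), both targets of ATF4, were highest in it too. Chac1 was not tested, and Trib3, dim in sorted cells, was not called against pre-transformed cells (adjusted p = 0.0783) and called higher against controls (adjusted p = 0.0343). Atf4 itself was also highest in tumour 2, with signals of 875, 2021, 918 and 1174 in tumours 1 to 4 and 915 to 1126 in pre-transformed cells. As a group, tumours were not called against pre-transformed cells in Atf4 (log2 change 0.19 ± 0.26, adjusted p = 0.554).

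**Figure D5:**
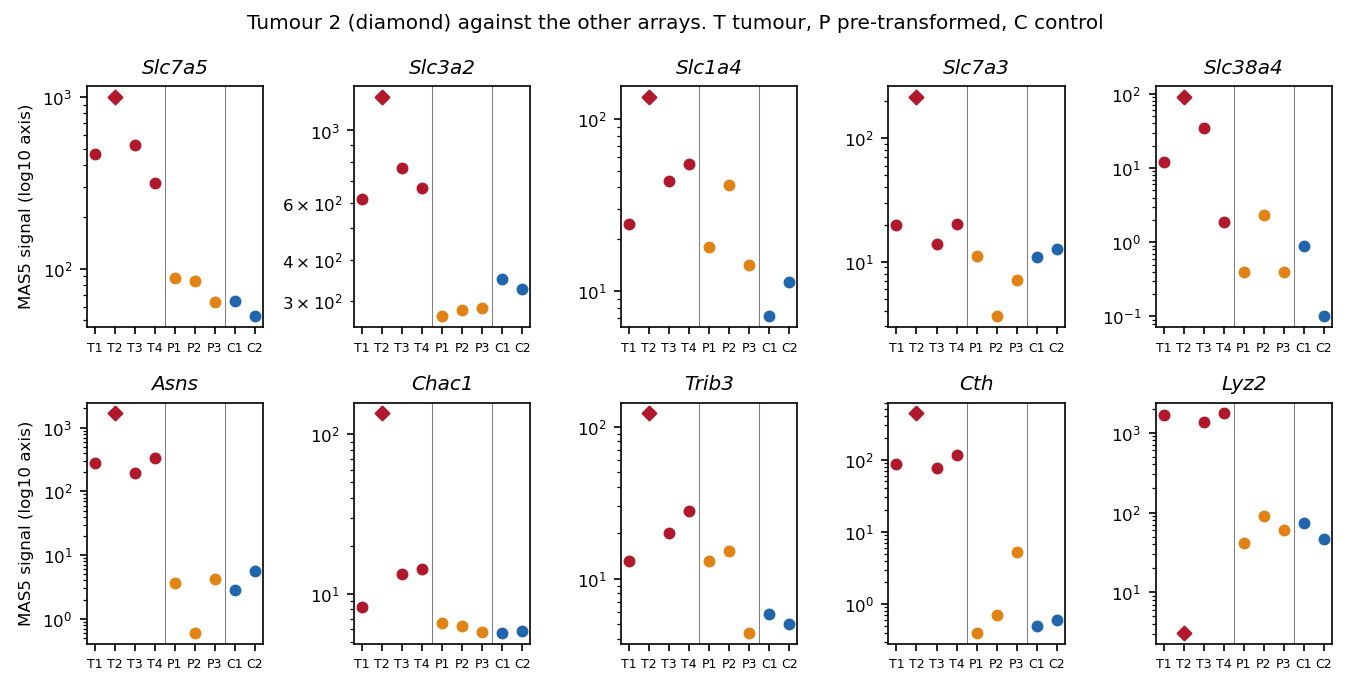
Signal (log10 axis) of 5 transporters (top), 4 amino acid response genes and the myeloid marker Lyz2 (bottom) on each array, in the order tumours, pre-transformed cells and controls, with tumour 2 as a diamond. Tumour 2 is the highest array in all of these except Lyz2, in which it is the lowest. The panels are a selection. Tumour 2 was the highest tumour in 7 of the 10 members called higher, and the lowest in Slc38a1, Slc7a7 and the response gene Atf3, which are not shown.

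Markers of DP thymocytes and of other cells were read beside these results. The DP co-receptors were bright on every array, with Cd4 at 1095, 1216, 1725 and 1008 in tumours and Cd8a at 2555, 2056, 2946 and 2585. Of 9 DP markers 8 were called lower in tumours against pre-transformed cells (31% over all genes). The 9 summed to 9614 to 13821 in tumours, 24114 to 26035 in pre-transformed cells and 22854 to 24114 in controls. Ptcra (the pre-T cell receptor α chain) had signals of 5.2, 2.7, 3.6 and 6.8 in tumours against 251, 214 and 228 in pre-transformed cells. The falls of Slc36a1, Slc38a2, Slc38a6, Slc38a9 and Slc43a2 go with these lower DP markers, and the part of the markers in them was not tested.

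Of 12 myeloid markers 4 were called higher in tumours against pre-transformed cells (23.9% over all genes). These 4 (Elane, Ngp, S100a8 and S100a9) passed the filter only through tumour arrays and had to be high there. The 12 summed to 3395, 182, 3642 and 3152 in tumours 1 to 4, 165 to 274 in pre-transformed cells and 149 to 179 in controls. Most of the sum in tumour 2 was Itgam (113.2 there, against 33 to 53.4 in pre-transformed cells). Lyz2 was 1659, 3.1, 1376 and 1741 in tumours 1 to 4, against 42 to 89.6 in pre-transformed cells, and Csf1r was 412, 8.4, 301 and 475, against 20 to 45.3. Tumour 2 thus read below the pre-transformed cells in Lyz2 and Csf1r and above them in Itgam. Its signals of Slc7a5, Slc3a2, Slc7a1 and Slc36a4 were higher than in tumours 1, 3 and 4, while Slc38a1 (1079) and Slc7a7 (14.4) were lowest in it. The part of myeloid cells in these transporter signals was not tested, and tumour 2 is 1 array. B cell markers summed to 5518, 248, 5300.3 and 1586 in tumours 1 to 4, 1774 to 2057 in pre-transformed cells and 2801 to 3046 in controls. These sums were mostly Ighm (5141, 239, 4997 and 1139 in tumours). Ms4a1, which passed the filter only through tumour arrays, was called higher in tumours against pre-transformed cells (adjusted p = 0.0155). Cd79a (adjusted p = 0.203) and Cd79b (adjusted p = 0.09) were not called, with Cd79b at 1.3 to 108.5 in tumours, against 196 to 215 in pre-transformed cells. Stroma markers summed to 191 to 428 in tumours and 157 to 203 in sorted cells, and erythroid markers to 33.2 to 79.1 in tumours and 3.7 to 18.1 in sorted cells.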

How the data were processed

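Signal intensity per probe set was deposited as 1 linear-scale table for 9 arrays, made by the authors with MAS5, per the submitters' processing notes, which name no version here. A trimmed mean (2% off each end) of every array came to 100. Control probe sets (64 of 45101) were dropped, values of 0 (218) became 0.1, and log2 was taken with nothing else normalized. A probe set was kept where 2 or more arrays read at least the array median (26421 of 45037; medians 9.9 to 15.2), and the brightest kept probe set stood for each of 11644 genes. Annotation gave 34945 probe sets a single gene, 932 several and 9160 none.

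limma 3.58.1 under R 4.3.3 (lmFit, eBayes with a trend) gave the tests, adjusted by Benjamini-Hochberg over all genes. Pre-transformed and control arrays were fitted on their own, tumour comparisons on all 9. The fit was tested on simulated data. Group signals are geometric means, with SD and SE in log2. Replicate numbers name different mice, and same-numbered arrays did not deviate together (correlations -0.02 to 0.08), so arrays were not paired. Plots used matplotlib 3.10.9 (Python 3.11.15).

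Members and lists were chosen with earlier results of these data known. Full values are given for members called before transformation, for called members whose higher mean reached the 65th percentile, and for Slc3a2, Slc7a5, Slc1a5, Slc7a11 and Slc38a9. Each companion list is represented by called genes with large changes. Sfxn1, Ptcra, Lyz2, Csf1r, Itgam, Ighm, Chac1, Trib3, Atf4, Cd4 and Cd8a were chosen after their values were seen. Alternatives covered filters (none, stricter), scaling (quantile, median centring), dim signals (an offset of 16, a common floor of 44.6), probe sets (their mean, no suffixed ones), the fit (no trend, array weights, other arrays, replicate block) and leaving out each array.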

Additional observations from a re-analysis of the deposited data

Results flagged for a closer look

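In 2 of 25 tested members, 1 tumour array stood apart from the other 3 tumours by Dixon's test on log2 signals; chance flags about 1 in 20 groups. Slc7a3 had a signal of 216.4 in tumour 2 and 13.8 to 20.3 in the other tumours (gap over range 0.86). Slc7a8 had a signal of 3.5 in tumour 4 and 12.4 to 15.3 in the others (0.858), all of them dim.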

How the results depend on the processing

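Of the 16 members called in tumours against pre-transformed cells, 10 kept their call under every alternative run: Slc3a2, Slc7a1, Slc7a5, Slc36a4 and Slc38a1 higher, and Slc36a1, Slc38a2, Slc38a6, Slc38a9 and Slc43a2 lower. Of the 12 called against controls, 5 did (Slc7a1, Slc7a5, Slc36a4, Slc38a9 and Slc43a2), and the Slc43a1 call in pre-transformed against control cells did not. With single arrays left out, members called higher and lower numbered 6 to 11 and 6 to 7 in tumours against pre-transformed cells (6 higher without pre-transformed 1), 5 to 8 and 4 to 6 in tumours against controls, and 0 to 2 and 0 in pre-transformed against control cells. Over all 11644 genes these calls numbered 2206 to 2907 and 2918 to 3769 in the first comparison. In the second they numbered 1177 to 2601 and 1412 to 3265, and in the third 18 to 159 and 0 to 132. Without a filter 11 of 40 members were higher in tumours against controls, beside 3000 of 18193 genes. In pre-transformed against control cells 0 were higher under the common floor, without the trend and with other arrays in the fit, and 2 without suffixed probe sets. The mean of probe sets reversed Slc38a10 (0.16 and 0.42 in the tumour comparisons) and Slc1a5 against controls (-0.96). Over all genes, pre-transformed against control calls numbered 190, and 74 without a filter, 18 under the common floor, 1 without the trend, 431 with array weights and 6 with other arrays in the fit, and 18 to 291 with single arrays left out; tumours against controls gave 2589 without control 1 and 3168 without control 2. The cause was not tested. The replicate block gave 10 higher and 6 lower, 7 and 6, and 1 and 0 in the 3 comparisons, so it moved no count by over 1.5 times. Signals below the 65th percentile limit what dim members can show.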
